A study of Mus musculus with 12 samples.

Results

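The 10 genes described here encode tropomyosins (*Tpm1*, *Tpm2*, *Tpm3*, *Tpm4*), tropomodulins (*Tmod1*, *Tmod3*, *Tmod4*), leiomodins (*Lmod2*, *Lmod3*) and nebulin (*Neb*). They were taken by gene symbol out of the 55450 genes of the count table, without use of their levels, and all 10 were found and had enough reads to be tested. RNAseq counts came from tibialis anterior (TA) muscle of wild-type (WT) 129Pas mice at E18.5, the last days before birth, and at 2 weeks (wks) and 7 wks of age, with 4 mice per age and 1 library per mouse. The labels list no treatment, sex or litter, and the libraries were made to follow splicing as the muscle matures. Each library held the RNA of a whole muscle piece, so a gene read from fewer cells of 1 type and a gene with less RNA per cell could not be told apart.

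Tropomyosins are coiled-coil dimers that lie end to end along the actin filament and, together with troponin, set whether myosin can bind. Tropomodulins cap the pointed end of the thin filament in the middle of the sarcomere, and leiomodins, their relatives, promote the assembly and elongation of filaments at that end. Nebulin is a giant protein that runs along most of the thin filament of skeletal muscle and contributes to its length. In skeletal muscle *Tpm1* gives the main tropomyosin of fast fibers, *Tpm3* that of slow fibers and *Tpm2* a tropomyosin of both, while *Tpm4* and other products of *Tpm1* and *Tpm3* serve the actin cytoskeleton of most cells. Mutations of the human genes of nebulin and leiomodin 3, and of the tropomyosin genes *TPM2* and *TPM3*, cause nemaline myopathies.

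From E18.5 to 7 wks, 7 of the 10 genes rose and 3 fell, where 71.4% of all tested genes were called, 34.3% higher and 37.1% lower. *Tpm1*, *Tpm2*, *Tmod4* and *Neb* rose the most, by 11.6-fold, 6.22-fold, 7.95-fold and 6.06-fold, *Lmod3*, *Tmod1* and *Lmod2* rose by 2.77-fold, 2.48-fold and 2.12-fold, and *Tpm3*, *Tpm4* and *Tmod3* ended 3.49-fold, 4.37-fold and 1.42-fold lower. When libraries were scaled by their total count, the rises of *Lmod3* (log2 0.20) and *Tmod1* (0.04) were not called and *Lmod2* was at −0.18. *Tpm1*, *Tpm2*, *Tmod1* and *Lmod3* were called between E18.5 and 2 wks, *Lmod2* between 2 and 7 wks, and *Tmod4*, *Neb*, *Tpm3* and *Tpm4* in both intervals. Under other settings or with 1 library left out, the later call was lost 9 times for *Tmod4* and 10 times for *Neb*. Each of these totals includes a stricter test, which asked for a log2 change beyond 1 and called none of the 10 genes there. The later call was lost 1 time each for *Tpm3* and *Tpm4*, only under that stricter test. Relative to *Tpm1* in the same library, *Tpm3* fell 39.9-fold from E18.5 to 7 wks (exact adjusted p = 0.0429).

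The bases before the start of transcription are shown for genes of both directions, the rising *Tpm1*, *Tmod4* and *Tmod1* and the falling *Tpm3* and *Tpm4*, since these are the regions through which such genes are commonly controlled. They are RefSeq sequences of the GRCm38.p6 build, 250 bases before each start site, written 5′ to 3′ on the strand of the gene. *Tpm3* has 2 start sites, and the internal one belongs to the short cytoskeletal tropomyosins. The windows of *Tpm1*, *Tmod1* and *Tmod4* also lie within the annotated span of their genes, since the start site used is not the outermost one. Capitals mark every match to the motifs searched on both strands.
Tpm1, chr9:67049214-67049463, minus strand: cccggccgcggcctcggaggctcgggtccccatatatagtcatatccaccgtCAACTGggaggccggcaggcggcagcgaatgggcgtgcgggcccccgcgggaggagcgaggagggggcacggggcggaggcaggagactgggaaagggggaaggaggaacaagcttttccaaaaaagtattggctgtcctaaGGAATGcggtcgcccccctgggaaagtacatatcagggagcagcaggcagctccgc
Tmod4, chr3:95124264-95124513, plus strand: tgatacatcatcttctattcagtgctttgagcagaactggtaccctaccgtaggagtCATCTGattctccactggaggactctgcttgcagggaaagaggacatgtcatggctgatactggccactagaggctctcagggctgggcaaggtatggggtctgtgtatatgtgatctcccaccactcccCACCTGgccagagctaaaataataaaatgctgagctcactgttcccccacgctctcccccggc
Tmod1, chr4:46038972-46039221, plus strand: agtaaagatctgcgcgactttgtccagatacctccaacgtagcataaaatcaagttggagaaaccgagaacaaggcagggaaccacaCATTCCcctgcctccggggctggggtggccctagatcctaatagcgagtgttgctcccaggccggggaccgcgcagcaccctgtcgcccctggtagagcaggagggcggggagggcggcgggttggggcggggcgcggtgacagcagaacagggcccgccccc
Tpm3, first start site, chr3:90072401-90072650, plus strand: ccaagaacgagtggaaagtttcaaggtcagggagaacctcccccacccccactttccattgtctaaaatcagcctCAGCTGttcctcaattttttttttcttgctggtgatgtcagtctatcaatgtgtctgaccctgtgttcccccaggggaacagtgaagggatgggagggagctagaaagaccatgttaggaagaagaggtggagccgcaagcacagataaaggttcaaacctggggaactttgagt
Tpm3, second start site, chr3:90079271-90079520, plus strand: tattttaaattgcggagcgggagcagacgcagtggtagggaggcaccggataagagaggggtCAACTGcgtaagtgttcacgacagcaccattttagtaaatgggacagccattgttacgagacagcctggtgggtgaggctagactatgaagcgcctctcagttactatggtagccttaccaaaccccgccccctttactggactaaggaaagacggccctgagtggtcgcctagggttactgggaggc
Tpm4, chr8:72135038-72135287, plus strand: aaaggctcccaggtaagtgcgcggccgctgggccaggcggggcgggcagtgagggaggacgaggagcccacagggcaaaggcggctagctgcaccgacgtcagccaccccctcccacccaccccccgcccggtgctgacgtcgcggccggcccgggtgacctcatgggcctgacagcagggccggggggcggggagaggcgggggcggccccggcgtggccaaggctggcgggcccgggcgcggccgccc
The motifs were the E-box CANNTG, which basic helix-loop-helix proteins such as MyoD bind, the MCAT motif CATTCC of the TEAD proteins, the CArG box of serum response factor, the MEF2 motif and the TATA box core TATAAA. RefSeq gave 8 promoters for 7 of the genes, and *Tmod3*, *Lmod3* and *Neb* had none in the table. An E-box was found in 6 of the 8 windows (75.0%), against 66.2% of 32841 mouse promoters of that length. The MCAT motif was found in 2 of them, against 12.6% of all promoters, at 56 bases before the start of *Tpm1*, where it reads GGAATG on the strand shown, and at 163 bases before the start of *Tmod1*. Neither the CArG box (1.47% of all promoters), the MEF2 motif (2.92%) nor the TATA core (12.4%) matched in the windows of these genes. The rising *Tmod4* had 2 E-boxes and the falling *Tpm3* had 1 before each start site, so the motif was in promoters of both directions. These matches are letters in a window and were not tested as sites.

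The libraries held between 63018968 and 123449246 reads assigned to genes. The 10 genes took 0.893% ± 0.155 (SD, n = 4) of these at E18.5, then 2.85% ± 0.132 at 2 wks and 2.68% ± 0.288 at 7 wks. Levels are given below as CPM, the counts relative to library size after edgeR's TMM scaling, which corrects for differences in RNA composition. Ages were compared by the quasi-likelihood test of edgeR, with p-values adjusted after Benjamini and Hochberg over 19276 genes, and a gene was called at an adjusted p under 0.05. Nothing states that the 4 mice of an age came from separate litters, so the p-values rest on the spread between these mice. The summed level of 9 muscle markers was 9497 ± 1854 CPM at E18.5, then 107759 ± 9847 CPM at 2 wks and 126560 ± 6452 CPM at 7 wks, with each marker detected in every library. That of 8 fibroblast markers ranged from 7859 to 14701 CPM at E18.5, from 4632 to 6383 CPM at 2 wks and from 1001 to 4161 CPM at 7 wks, the highest being 7 wks replicate 1.

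Between E18.5 and 2 wks, 8 of the 10 genes were called, 6 higher and 2 lower, where 65.7% of all tested genes were called (31.5% higher, 34.2% lower). Their median log2 fold change was 1.06, against −0.09 for all tested genes. Between 2 and 7 wks, 5 were called, 3 higher and 2 lower, where 27.5% of all genes were (13.5% higher, 13.9% lower), with a median of 0.24 against −0.03. From E18.5 to 7 wks all 10 were called, 7 higher and 3 lower, where 71.4% of all genes were (34.3% higher, 37.1% lower), with a median of 1.39 against −0.09. In the first interval the share called was near that of all genes. The balance of rises and falls among the 10 genes depended on the scaling: with total count scaling 4 were called as rising and 4 as falling in the first interval, 1 and 3 in the second, and 4 and 3 over both. From 2 to 7 wks 1 was called higher and 2 lower with upper quartile scaling, without 2 wks replicate 1 and without 7 wks replicate 4. Groups of libraries did not overlap for 6 rising and 2 falling genes in the first interval (61.3% of all genes, 28.9% rising and 32.4% falling). They did not overlap for 2 and 2 in the second (33.7%, 17.3% and 16.4%), and for 7 and 3 over both (63.4%, 30.2% and 33.3%). Scaling by total count in place of TMM shifted the log2 fold change of all genes by a median of −0.93, −0.35 and −1.28 in the 3 comparisons, and 17.6%, 14.96% and 14.7% of the called genes were then higher, against 47.9%, 49.3% and 48.1%. With upper quartile scaling 36.7% of the called genes were higher between 2 and 7 wks, and with the trend on transcript length removed 37.0% and 37.8% were higher at 2 wks and at 7 wks than at E18.5.

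**Figure D1:**
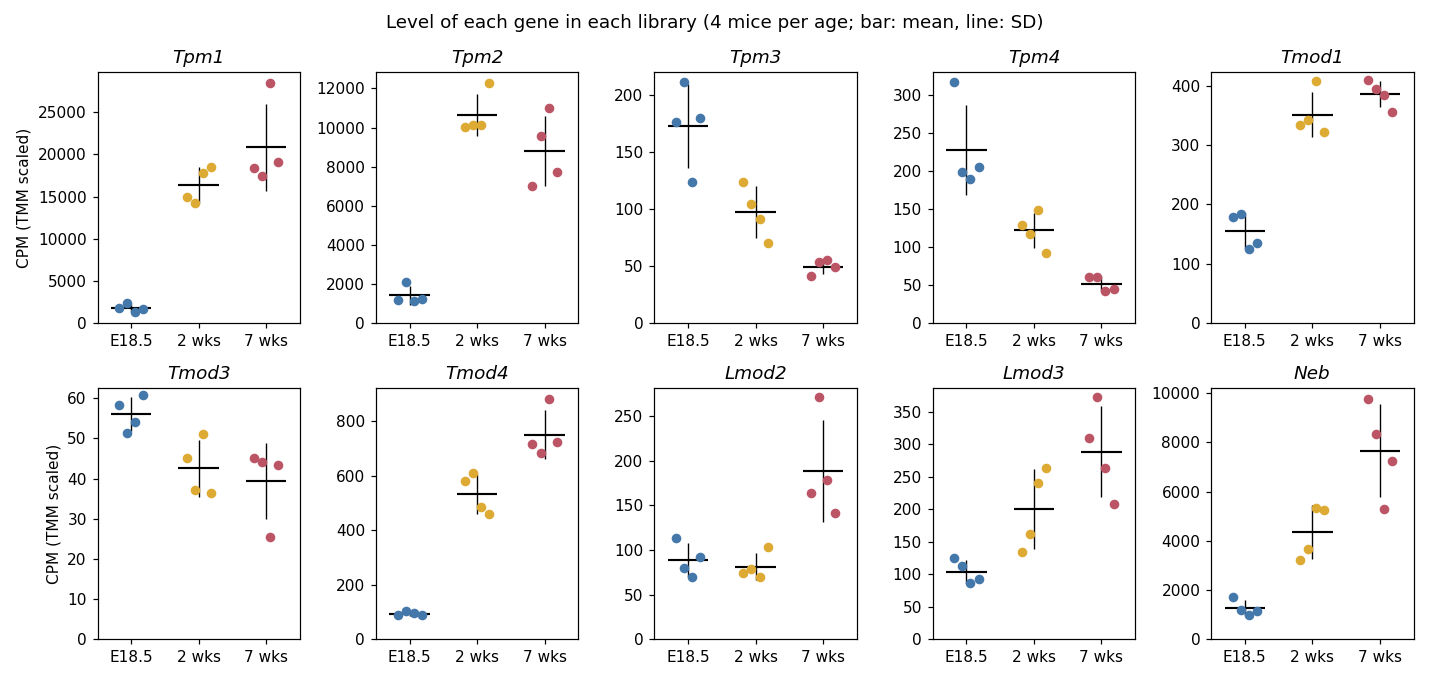
Level of each of the 10 genes (CPM after TMM scaling, linear axis from 0) in each of the 12 libraries, by age; points are mice, the horizontal bar is the mean and the vertical line the SD of 4 mice. The 4 *Tpm1* points lie between 1348 and 2380 at E18.5 and between 14183 and 18477 at 2 wks, whereas the *Lmod2* points overlap at those ages and lie higher, from 141 to 271, at 7 wks.

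*Tpm1* (ENSMUSG00000032366, chr9:67022590-67049672 in GRCm38.p6) encodes α-tropomyosin. In the 4 libraries of E18.5 it was at 1768, 2380, 1348 and 1697 CPM. At 2 wks it was at 14904, 14183, 17778 and 18477 CPM, and at 7 wks at 18361, 17402, 28416 and 19075 CPM. Every postnatal library lay above every fetal one, and the libraries of 2 and 7 wks overlapped, with 7 wks replicate 3 apart from the rest. *Tpm1* rose 9.08-fold from E18.5 to 2 wks (log2 fold change 3.18, SE 0.26, adjusted p = 4.07e-07), and the later difference of 0.35 (SE 0.24, adjusted p = 0.296) was within the spread between mice. The change of the first interval exceeded that of the second by 2.83 (log2, SE 0.40, adjusted p = 0.000223), in a test of the signed difference, first minus second. That test called 5 of the 10 genes, 4 with a positive and 1 with a negative difference, and 38.4% of all genes (21.6% positive and 16.8% negative). A negative difference also arises where a gene fell more in the first interval.

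*Tpm2* (chr4:43513726-43523583) encodes β-tropomyosin, which pairs with the products of *Tpm1* and *Tpm3*. It was at 1187, 2124, 1128 and 1228 CPM at E18.5, at 10008, 10150, 10130 and 12280 CPM at 2 wks, and at 7010, 9558, 10980 and 7717 CPM at 7 wks. The 2 postnatal ages overlapped and were both above E18.5. *Tpm2* rose 7.51-fold in the first interval (log2 2.91, SE 0.26, adjusted p = 8.27e-07). Between 2 and 7 wks the log2 difference was −0.27 (SE 0.24, adjusted p = 0.428), lower in 13 of the 16 pairs of libraries, it became −0.62 and was called with total count scaling, and it was 0.00065 with the GC trend removed. The 2 intervals differed by 3.18 (log2, SE 0.40, adjusted p = 9.97e-05). The smooth muscle markers, 7 genes of another tissue that uses *Tpm1* and *Tpm2*, summed to 435 ± 120 CPM at E18.5, then 775 ± 237 CPM at 2 wks and 411 ± 49.0 CPM at 7 wks. A large part of this sum was *Acta2*, at means of 243, 389 and 99.2 CPM at the 3 ages. From E18.5 to 7 wks 4 of the 7 markers were called higher and 2 lower. The part of smooth muscle in the levels of *Tpm1* and *Tpm2* was not tested.

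*Tpm3* (chr3:90072651-90100902) gives the slow-fiber tropomyosin from its first start site and cytoskeletal tropomyosins from the second, and its count adds up both. It was at 177, 212, 124 and 180 CPM at E18.5, at 124, 104, 91.1 and 70.3 CPM at 2 wks, and at 41.0, 53.3, 55.3 and 48.8 CPM at 7 wks. The highest library of 2 wks reached the lowest of E18.5, and all libraries of 7 wks were below those of 2 wks. *Tpm3* fell 1.77-fold to 2 wks (log2 −0.83, SE 0.20, adjusted p = 0.00218) and a further 1.96-fold to 7 wks (log2 −0.97, SE 0.20, adjusted p = 0.0031), and the values were −1.73 and −1.34 with total count scaling. The difference between the intervals was 0.15 (log2, SE 0.34, adjusted p = 0.756), within its error, and its sign changed with total count scaling, with the length trend removed and without 2 wks replicate 1. The slow-fiber genes *Myh7* (slow myosin heavy chain) and *Tnnt1* (slow troponin T) also fell in both intervals, *Myh7* by log2 values of −3.23 (SE 0.58) and −1.84 (SE 0.56) and *Tnnt1* by −1.31 (SE 0.47) and −2.92 (SE 0.50), with adjusted p values of 0.000274, 0.0267, 0.0255 and 0.00114 in that order. The change of *Tpm3* was smaller than theirs in each interval, and these differences in size were not tested. The retrogenes named after *Tpm3* had few reads, between 4 and 75 per library for *Tpm3-rs7* and 0 for *Tpm3-rs2*.

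*Tpm4* (chr8:72135288-72153142) encodes a tropomyosin of the actin cytoskeleton of non-muscle cells and muscle precursors. It was at 317, 199, 190 and 206 CPM at E18.5, at 129, 118, 149 and 92.9 CPM at 2 wks, and at 60.3, 60.5, 42.9 and 44.9 CPM at 7 wks. The 3 ages did not overlap. *Tpm4* fell 1.87-fold to 2 wks (log2 −0.90, SE 0.20, adjusted p = 0.00153) and 2.34-fold from 2 to 7 wks (log2 −1.23, SE 0.21, adjusted p = 0.00095), and the values were −1.82 and −1.58 with total count scaling. The difference between the intervals was 0.33 (log2, SE 0.35, adjusted p = 0.48), with its sign changed by total count scaling and by removal of the length trend. Of the 8 fibroblast markers, 4 were called lower and 1 higher in the first interval, 5 were called lower in the second, and 7 were called lower over both, with medians of −0.80, −1.49 and −2.32. The markers thus moved with *Tpm3* and *Tpm4*, and their part in these falls was not tested.

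Within the tropomyosin family, each library was read as the share of each gene in the family's counts per kilobase of merged exons. *Tpm3* and *Tpm4* together with the muscle genes made up the family at E18.5, with 3.43% ± 0.434 for *Tpm3* and 8.29% ± 2.75 for *Tpm4* (SD, n = 4). At 2 wks these shares were 0.269% ± 0.0833 and 0.592% ± 0.140, and at 7 wks 0.133% ± 0.0167 and 0.255% ± 0.0794. *Tpm1* and *Tpm2* exchanged places: *Tpm1* had 35.6% ± 1.75 at E18.5, then 44.2% ± 2.36 at 2 wks and 55.0% ± 4.27 at 7 wks, and *Tpm2* had 52.7% ± 4.46, 55.0% ± 2.39 and 44.6% ± 4.24. The growth of the *Tpm1* share did not depend on the length used, but its rank did. With the longest transcript of each gene as the length, *Tpm1* had 43.7% and *Tpm2* 42.1% at E18.5, and *Tpm1* led at each age.

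**Figure D2:**
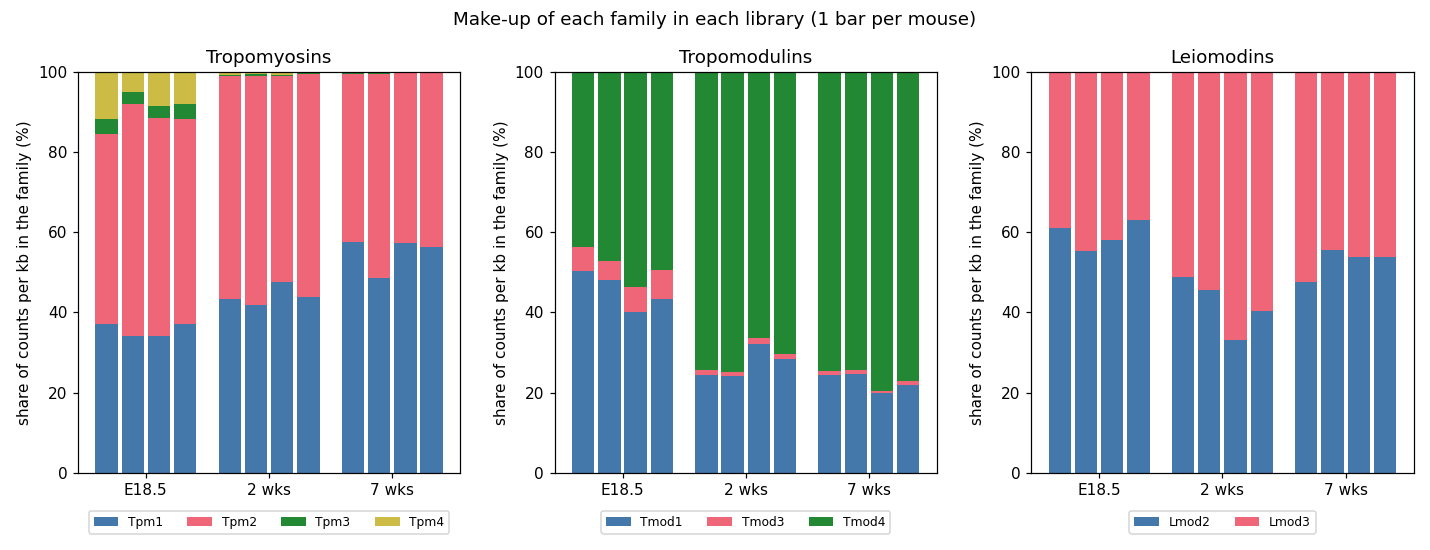
Share (%) of each gene in the counts per kilobase of merged exons of its family, with 1 stacked bar per mouse and 4 mice per age. *Tpm3* and *Tpm4* occupy visible parts of the bars at E18.5 and under 1% each afterwards, the *Tmod4* share is larger at 2 and 7 wks than at E18.5, and the *Lmod3* share is largest at 2 wks.

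Ratios of counts within a library do not depend on how libraries are scaled, and 7 pairs of genes were compared between ages with the exact permutation test (two-sided, 4 against 4 libraries, smallest p 0.029, adjusted over 21 tests). The *Tpm1* count was 9.45 to 11.2 times that of *Tpm3* at E18.5, then 120 to 263 times at 2 wks and 327 to 514 times at 7 wks. *Tpm3* relative to *Tpm1* thus fell 16.4-fold and then 2.43-fold, with no overlap (exact adjusted p = 0.0429 for each). *Tpm1* exceeded *Tpm4* by 5.57 to 11.9 times at E18.5, by 115 to 199 times at 2 wks and by 288 to 662 times at 7 wks, which is 17.1-fold and then 2.94-fold lower for *Tpm4* (exact adjusted p = 0.0429 for each). The *Tpm2* to *Tpm1* ratio was 0.672 to 0.892 at E18.5, then 0.570 to 0.716 at 2 wks and 0.382 to 0.549 at 7 wks. Its first step was within the spread (1.19-fold lower, exact adjusted p = 0.0947), but passed without E18.5 replicate 1 at a log2 value of −0.32, and its second was not (1.54-fold lower, exact adjusted p = 0.0429). With 7 wks replicate 3 left out, the later falls of *Tpm3* and *Tpm4* against *Tpm1* were −1.18 and −1.31 on the log2 scale and no longer passed the threshold, as the later fall of *Tpm3* against *Tpm1* also did not without 7 wks replicate 1 (−1.24), replicate 2 (−1.40) or replicate 4 (−1.31). The later fall of *Tpm2* against *Tpm1* did not pass without 2 wks replicate 1 (−0.60), replicate 2 (−0.57), replicate 3 (−0.68) or replicate 4 (−0.61), though the direction stayed. In each of these lost calls the remaining libraries of the 2 ages still did not overlap. With 1 library left out the exact test has fewer regroupings, so a lost call alone does not show dependence on that library.

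**Figure D3:**
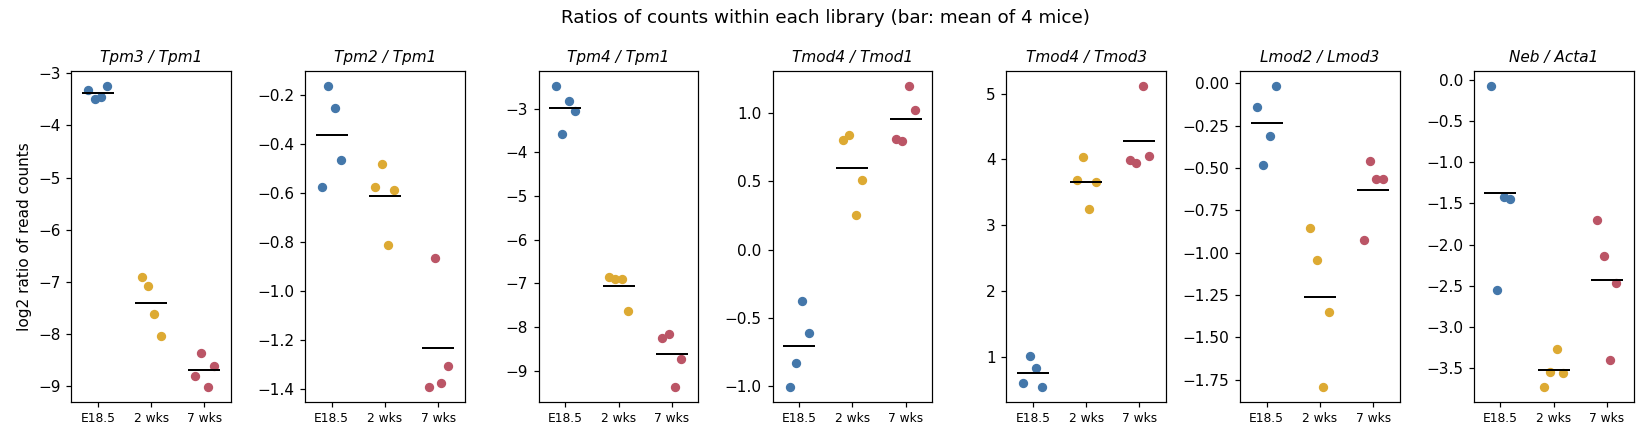
Log2 ratio of the read counts of 2 genes in each of the 12 libraries (y axis, separate scale for each pair) by age; points are mice and bars are means of 4 mice. *Tpm3* and *Tpm4* against *Tpm1* drop without overlap at each step, *Tmod4* rises against *Tmod1* and *Tmod3* between E18.5 and 2 wks, and the ratios with *Lmod2* and *Neb* as numerator have their lowest mean at 2 wks.

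*Tmod4* (chr3:95122799-95129209) encodes the tropomodulin of skeletal muscle fibers. It was at 89.1, 104, 95.9 and 88.7 CPM at E18.5, at 581, 610, 484 and 458 CPM at 2 wks, and at 715, 682, 881 and 721 CPM at 7 wks. The 3 ages did not overlap. *Tmod4* rose 5.65-fold to 2 wks (log2 2.499, SE 0.16, adjusted p = 4.80e-08) and 1.41-fold from 2 to 7 wks (log2 0.49, SE 0.15, adjusted p = 0.0267). The earlier rise was larger by 2.01 (log2, SE 0.25, adjusted p = 9.80e-05), and it was 1.58 and still called with total count scaling. The later rise did not pass the threshold with total count scaling (0.13) or upper quartile scaling (0.38), with no filter on low counts (0.48), or without 2 wks replicate 1 (0.52), replicate 3 (0.45) or replicate 4 (0.43), or 7 wks replicate 3 (0.41) or replicate 4 (0.51).

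*Tmod1* (chr4:46038940-46116032) encodes the tropomodulin of striated muscle and of red blood cells. It was at 178, 184, 125 and 135 CPM at E18.5, at 334, 341, 407 and 322 CPM at 2 wks, and at 409, 394, 385 and 355 CPM at 7 wks. The postnatal ages overlapped and lay above E18.5. *Tmod1* rose 2.26-fold to 2 wks (log2 1.17, SE 0.16, adjusted p = 2.67e-05), and the later difference was 0.14 (SE 0.16, adjusted p = 0.555) and −0.21 with total count scaling. The first change exceeded the second by 1.04 (log2, SE 0.27, adjusted p = 0.00891), and by 0.46 with total count scaling and 0.71 with the length trend removed, where neither was called. With total count scaling the first rise itself was 0.25 and was not called. The 9 red blood cell markers had summed levels of 627 ± 321 CPM at E18.5, then 382 ± 294 CPM at 2 wks and 116 ± 17.0 CPM at 7 wks. The sums of E18.5 and 2 wks overlapped, 3 of the 9 markers were called lower and none higher in the first interval (edgeR), *Hba-a1*, a hemoglobin gene, was at a log2 value of 1.201 (SE 0.53) there, and their part in the level of *Tmod1* was not tested. *Tstd2*, which overlaps *Tmod1* on the other strand, had 1019 to 5030 reads per library, and a split of reads between the 2 genes depends on a strand setting not given in the sources used here.

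*Tmod3* (chr9:75497784-75559657) encodes the tropomodulin found in most cell types, and it was the least abundant of the family per kilobase. Its level was 51.3 to 60.7 CPM at E18.5, then 36.5 to 51.2 CPM at 2 wks and 25.4 to 45.1 CPM at 7 wks. All libraries of 2 and 7 wks were below those of E18.5, by a small margin. The difference to 2 wks did not pass the threshold (log2 −0.40, SE 0.18, adjusted p = 0.0666), and that over both intervals did (log2 −0.51, SE 0.18, adjusted p = 0.0224). With total count scaling these differences were −1.33 and −1.78, both called. The first also became a call at −0.54 with upper quartile scaling, and at −0.45 with DESeq2's test and with DESeq2's size factors in edgeR. It became one at −0.49 without 2 wks replicate 3 and at −0.39 without 7 wks replicate 3. The same held with at least 10 counts required in every library and with only the 8 libraries compared. With the GC trend removed it was 0.046. The second was lost at −0.47 without E18.5 replicate 4, at −0.33 without 7 wks replicate 3, the lowest library, and at −0.32 with the GC trend removed. Between 2 and 7 wks the difference was −0.11 (SE 0.18, adjusted p = 0.697), and 0.056 without 7 wks replicate 3.

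The *Tmod4* to *Tmod1* count ratio was 0.499 to 0.769 at E18.5, then 1.19 to 1.79 at 2 wks and 1.73 to 2.29 at 7 wks, a 2.47-fold rise in the first interval (exact adjusted p = 0.0429) and a 1.28-fold difference in the second (exact adjusted p = 0.15, higher in 13 of 16 pairs). The *Tmod4* to *Tmod3* ratio moved from 1.46 to 2.02 at E18.5 up to 9.45 to 16.4 at 2 wks and 15.5 to 34.7 at 7 wks, with a 7.48-fold rise (exact adjusted p = 0.0429) and then a 1.54-fold difference (exact adjusted p = 0.0947). As shares of the family per kilobase of merged exons, *Tmod4* had 48.5% ± 4.17, 71.5% ± 3.94 and 76.4% ± 2.47 at the 3 ages, *Tmod1* 45.4% ± 4.604, 27.3% ± 3.76 and 22.7% ± 2.25, and *Tmod3* 6.06% ± 0.920, 1.2004% ± 0.210 and 0.859% ± 0.254. *Tmod1* and *Tmod4* were near equal parts at E18.5, and with the longest transcript as length *Tmod1* was ahead, at 48.6% against 42.5%. After birth *Tmod4* led with either length.

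*Lmod2* (chr6:24597771-24605414) encodes a leiomodin of heart and skeletal muscle. It was at 113, 80.2, 69.4 and 92.4 CPM at E18.5, at 74.5, 78.8, 69.6 and 103 CPM at 2 wks, and at 164, 271, 179 and 141 CPM at 7 wks. The first 2 ages overlapped, and all libraries of 7 wks lay above both. The first difference was −0.12 (log2, SE 0.22, adjusted p = 0.631), it was −1.05 with total count scaling and −0.80 with the length trend removed and called in both, 0.11 with the GC trend removed, and 0.014 without E18.5 replicate 1. *Lmod2* then rose 2.31-fold from 2 to 7 wks (log2 1.21, SE 0.22, adjusted p = 0.00154). With TMM scaling it was the only one of the 10 genes with a negative value called by the test of the difference. That value was log2 −1.33 (first minus second, SE 0.39, adjusted p = 0.0157), from the later rise. With total count scaling *Tmod3* was called at −0.88 too, where its first fall (−1.33) was larger than its second (−0.45). The *Lmod2* call was lost with the GC trend removed (−0.90) and without 2 wks replicate 1 (−1.21) or replicate 3 (−1.19). From E18.5 to 7 wks the rise was 2.12-fold (log2 1.09, adjusted p = 0.000502), it was −0.18 with total count scaling, and 0.45 and not called with the length trend removed.

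*Lmod3* (chr6:97238530-97253217) encodes the leiomodin of skeletal muscle. It was at 125, 112, 86.1 and 93.3 CPM at E18.5, at 135, 162, 241 and 263 CPM at 2 wks, and at 310, 372, 264 and 209 CPM at 7 wks. The libraries of 2 wks were spread widely, and they overlapped those of 7 wks and not those of E18.5. *Lmod3* rose 1.92-fold in the first interval (log2 0.94, SE 0.24, adjusted p = 0.00293), a change that was −0.0045 with total count scaling. The second difference was 0.53 (SE 0.23, adjusted p = 0.108, higher in 14 of 16 pairs). The 2 intervals differed by 0.42 (log2, SE 0.40, adjusted p = 0.43), with the sign changed by total count scaling.

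The *Lmod2* to *Lmod3* count ratio was 0.715 to 0.990 at E18.5, then 0.289 to 0.553 at 2 wks and 0.528 to 0.728 at 7 wks. It fell 2.03-fold in the first interval (exact adjusted p = 0.0429), and its later difference, 1.55-fold higher, was in 15 of 16 pairs but did not pass (exact adjusted p = 0.0706) unless 2 wks replicate 1 was left out (log2 0.77). The share of *Lmod2* in the pair per kilobase was 59.3% ± 3.42 at E18.5, then 42.0% ± 6.81 at 2 wks and 52.7% ± 3.51 at 7 wks. *Lmod2* thus led at E18.5, *Lmod3* at 2 wks, and at 7 wks the shares were near even.

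*Neb* (chr2:52136640-52338798) encodes nebulin. It was at 1718, 1187, 984 and 1161 CPM at E18.5, at 3206, 3656, 5317 and 5236 CPM at 2 wks, and at 9757, 8324, 5283 and 7223 CPM at 7 wks. All postnatal libraries were above the fetal ones, and 7 wks replicate 3 lay within the range of 2 wks. *Neb* rose 3.45-fold to 2 wks (log2 1.79, SE 0.26, adjusted p = 5.04e-05) and 1.76-fold to 7 wks (log2 0.81, SE 0.26, adjusted p = 0.0303, higher in 15 of 16 pairs). The first rise was 0.84 and still called with total count scaling. The second rise did not pass with total count scaling (0.49), upper quartile scaling (0.71) or the length trend removed (0.51), nor without 2 wks replicate 1 (0.68) or replicate 2 (0.74), or 7 wks replicate 1 (0.67), replicate 2 (0.77) or replicate 4 (0.84). The difference between the intervals was 0.97 (log2, SE 0.43, adjusted p = 0.0901), and it passed at 1.16 without E18.5 replicate 1, at 1.402 with the GC trend removed and at 1.497 with the length trend removed.

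*Neb* was also set against *Acta1*, the skeletal α-actin of the filament along which nebulin runs. *Acta1* was at 1810, 6940, 2629 and 3162 CPM at E18.5, then between 42286 and 61429 CPM at 2 wks and between 31836 and 55492 CPM at 7 wks. The *Acta1* count was 1.05 to 5.85 times that of *Neb* at E18.5, then 9.57 to 13.2 times at 2 wks and 3.26 to 10.5 times at 7 wks. *Neb* relative to *Acta1* fell 4.43-fold in the first interval (exact adjusted p = 0.0429), in which both genes rose, and this did not pass with any of the 4 libraries of 2 wks left out, at log2 values of −2.08, −2.14, −2.23 and −2.13. The remaining libraries of the 2 ages still did not overlap, and the exact test has fewer regroupings with 1 library left out. The later difference was 2.13-fold higher (exact adjusted p = 0.0706, higher in 15 of 16 pairs), and it passed without 7 wks replicate 3 (log2 1.41). That between E18.5 and 7 wks was 2.08-fold lower (exact adjusted p = 0.171).

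**Figure D4:**
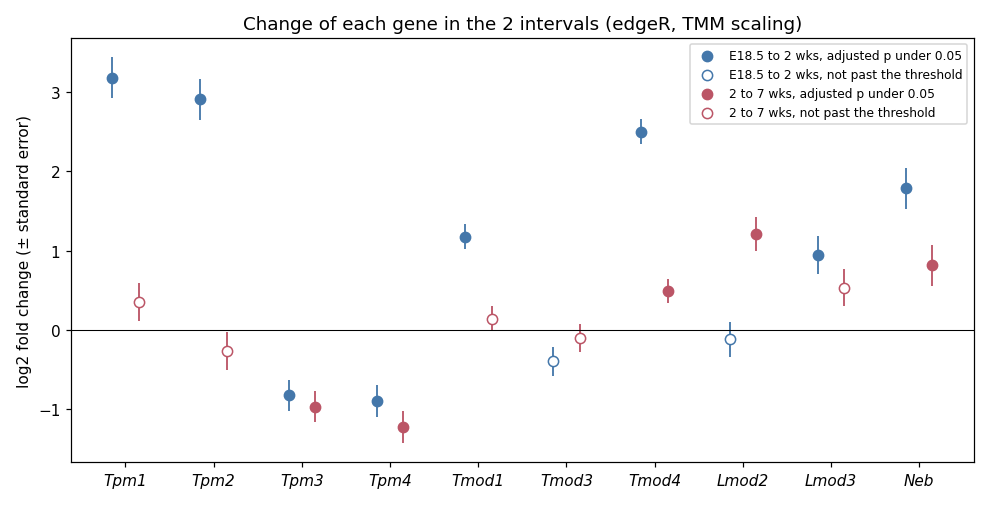
Log2 fold change of each gene in the interval before and in that after 2 wks (y axis, edgeR, TMM scaling), with the standard error as a line; filled points passed an adjusted p of 0.05. *Tpm1*, *Tpm2* and *Tmod4* change most before 2 wks, at 3.18, 2.91 and 2.499, *Lmod2* changes only after it in this fit, at 1.21, and *Tpm3* and *Tpm4* are below 0 in both intervals.

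Per kilobase of merged exons the order of levels changed with age. At E18.5 *Tpm2* (334 ± 112 CPM per kb) and *Tpm1* (223 ± 53.1) overlapped at the top and were apart from the rest, and *Tmod3* (3.82 ± 0.289) was apart at the bottom. Between them came *Tpm4* (49.8), *Neb* (47.0), *Lmod2* (37.1), *Tmod4* (30.8), *Tmod1* (29.1), *Lmod3* (25.3) and *Tpm3* (21.3), each overlapping the next in its range over 4 mice. At 2 wks the order was *Tpm2* (2512 ± 258), *Tpm1* (2022 ± 261), *Tmod4* (174 ± 24.0), *Neb* (162 ± 40.2), *Tmod1* (65.7 ± 7.14), *Lmod3* (48.6), *Lmod2* (34.1), *Tpm4* (26.7), *Tpm3* (12.001) and *Tmod3* (2.89), and the neighbours that overlapped were *Tmod4* with *Neb*, *Tmod1* with *Lmod3*, *Lmod3* with *Lmod2* and *Lmod2* with *Tpm4*. *Tmod4* had passed *Tpm4*, which had been above it without overlap at E18.5, and *Lmod2*, with which it had overlapped. With the longest transcript as length, the mean of *Tmod4* (39.8) was already above that of *Lmod2* (37.1) at E18.5. At 7 wks *Tpm1* (2577 ± 633) and *Tpm2* (2081 ± 424) overlapped again, followed by *Neb* (285 ± 70.2) and *Tmod4* (244 ± 29.0), which overlapped, then *Lmod2* (78.8), *Tmod1* (72.1) and *Lmod3* (70.1), each overlapping the next, and *Tpm4* (11.4), *Tpm3* (6.11) and *Tmod3* (2.69), which did not overlap. With the longest transcript as length, *Tpm1* stood first at each age, and *Tpm3* rose to the fifth place at E18.5 (52.0), next to *Neb* (54.0).

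Other genes of the thin filament were taken from a list of 22 (actins, troponins, capping, formin and assembly proteins, and further leiomodin, tropomodulin and nebulin relatives). In the first interval 15 rose, 4 fell and 3 were not called, with a median log2 fold change of 1.41, against a median of 1.06 for the 10 genes. The largest rises were those of *Acta1* (3.76, SE 0.41), *Nrap* (3.32, SE 0.36), a nebulin relative of growing myofibrils, and *Xirp2* (3.29, SE 0.36), an actin-binding protein of the filament ends. The largest falls were those of *Tmod2* (−2.86, SE 0.29), the tropomodulin of neurons, *Capza1* (−1.52, SE 0.22), a subunit of the barbed-end capping protein, and *Tnnt1* (−1.31, SE 0.47), with an edgeR adjusted p between 2.63e-06 and 0.0255 for these 6 genes. From 2 to 7 wks 4 of the 22 rose, 3 fell and 15 were not called, with a median of 0.26 against 0.24 for the 10 genes. *Xirp2* (1.39, SE 0.34), *Kbtbd13* (0.69, SE 0.20), a ubiquitin ligase adaptor of thin filaments, and *Capza2* (0.65, SE 0.19) rose, and *Tnnt1* (−2.92, SE 0.50), *Actc1* (−2.01, SE 0.49), the cardiac actin of fetal muscle, and *Wdr1* (−0.56, SE 0.17), a cofactor of actin disassembly, fell, with an edgeR adjusted p between 0.00114 and 0.0281. *Klhl41*, whose product stabilises nebulin, rose in both intervals, by 0.79 (SE 0.19, adjusted p = 0.00249) and 0.54 (SE 0.19, adjusted p = 0.0479).

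**Figure D5:**
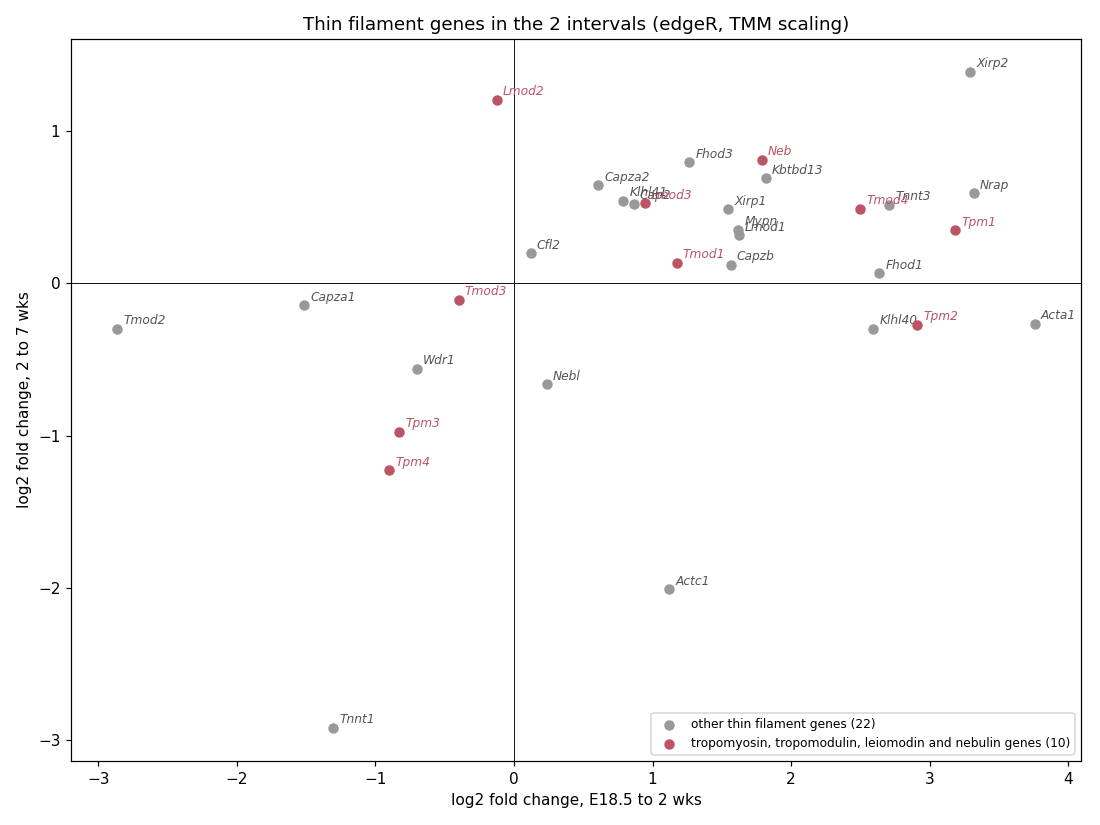
Change on the log2 scale between E18.5 and 2 wks (x axis) and between 2 and 7 wks (y axis), edgeR with TMM scaling, for the 10 genes and for 22 other thin filament genes, each a labelled point. The axes share the libraries of 2 wks, so an upper or lower value at that age moves a point on both; *Tpm3*, *Tpm4* and *Tmod3* lie below 0 on both axes, as *Wdr1*, *Tnnt1*, *Tmod2* and *Capza1* do, and *Lmod2* stands apart near 0 on the x axis and at 1.21 on the y axis.

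The genes whose levels ran closest to those of each of the 10 were found by the root mean square difference of centred log2 CPM over the 12 libraries, in a search of 4077 genes whose log2 CPM averaged 5 or more. Since age sets most of the course of these genes, the measure describes a shared course over the 3 ages. Closest to *Tpm1* was *Tnni2*, the fast troponin I (0.172), followed by *Eno3*, the muscle enolase (0.187), and *Slc25a4*, the muscle ADP/ATP carrier (0.188). *Tpm2* ran closest to *Shisa4* (0.139), *Mief2* and *Aimp2*, and *Tmod4* closest to *Pgm1*, a phosphoglucomutase of glycogen use (0.134), *Stac3*, which serves excitation-contraction coupling (0.138), and *Ube2d-ps*. The falling *Tpm3* ran closest to *S100a10* (0.213), *Ppia* and *Ptma*, and *Tpm4* to *Myadm* (0.151), *Wsb1* and *S100a11*. *Tmod3* ran closest to *Ptpn12* (0.120), *Tjp1*, the tight junction protein ZO-1, and *Gng12*. *Lmod3* was closest to *Klhl41* (0.147), then *1700025G04Rik* and *Cap2*, *Neb* to *Synpo2* (0.152), an actin-bundling protein of the Z-disc, *Usp13* and *Prkaa2*, and *Tmod1* to *Eml1* (0.129), *Sync* and *Gpr157*. *Lmod2* had the most distant neighbours, *Pdlim5* (0.253), *AU022252* and *Zbtb18*. Among the 10 genes themselves, the nearest pairs were *Tmod1* with *Lmod3* (0.317), *Tpm3* with *Tpm4* (0.353), *Tpm1* with *Tmod4* (0.398) and *Tpm1* with *Tpm2* (0.403).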

How the data were processed

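Per the labels and the study's methods, RNA of TA muscle pieces was made into stranded, polyA-selected libraries and sequenced as paired-end reads of 100 bases. The authors trimmed reads with cutadapt 1.10, mapped them with STAR 2.5.3a and counted them per Ensembl gene with HTSeq 0.6.1p1. The processing notes name the mm10 build and the methods text GRCm39, and the annotation and strand setting of the counting are not given in the sources used here. The deposited table holds raw counts of 55450 genes in 12 libraries, all isoforms of a gene summed, with 0 unmapped columns.

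Symbols, lengths and GC content came from GENCODE vM39 (51477 IDs matched, the rest 0.0394% of counts), positions and promoters from RefSeq GRCm38.p6. In all, 19276 genes passed edgeR's filterByExpr and were fitted together (edgeR 4.0.16, R 4.3.3, TMM, quasi-likelihood, all 12 libraries, 1 term per age, no covariate). This took the place of the Cuffdiff comparison of the methods, since the deposited values are counts per gene. SEs are the fold change over the root of F. Ratios had exact permutation tests over 70 regroupings. On data simulated for 2 wks against E18.5, 195 of 200 genes changed 4-fold were recovered with 10 false calls among 18883 genes, and 45 of 200 changed 2-fold with 3 among 18925. All other genes shared 1 mean profile in these simulations. They therefore cannot give the rate of false calls in data where 65.7% of genes were called and the scaling mattered. No 2 libraries of an age were copies (chi-square per degree of freedom 31.2 to 524 over 18 pairs).

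The genes and lists were chosen with earlier results of these data known. Named are all 10 genes, slow-fiber and marker genes of the lists, the 3 largest rises and falls of 22 thin filament genes per interval, and the 3 nearest genes by course. *Klhl41* was singled out after its values were seen. Alternatives were other scalings, DESeq2 1.42.0, other filters, GC or length trends removed, a replicate block and each library left out. Library totals of 63018968 to 123449246 counts leave counting error small beside the spread between mice.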

Additional observations from a re-analysis of the deposited data

Results flagged for a closer look

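In 5 of the 30 sets of 4 libraries (10 genes at 3 ages), 1 library stood apart from the other three by Dixon's criterion, where chance alone would give about 1.5. *Tpm1* was at 28416 CPM in 7 wks replicate 3, against 17402 to 19075 CPM in the others. *Tmod3* was lowest in the same library, at 25.4 CPM against 43.3 to 45.1 CPM. *Tpm2* was at 2124 CPM in E18.5 replicate 2, against 1128 to 1228 CPM, and at 12280 CPM in 2 wks replicate 4, against 10008 to 10150 CPM. *Tpm4* was at 317 CPM in E18.5 replicate 1, against 190 to 206 CPM.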

How the results depend on the processing

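Counts of called genes and of the 10 members stayed within 1.5 times of the main value in most alternatives. With upper quartile scaling 3 of the 10 genes were called between 2 and 7 wks. When the change had to exceed a log2 value of 1, 5507, 561 and 7574 genes were called in the 3 comparisons (edgeR's glmTreat, no other tool run). Of the 10 genes 4 were then called at 2 wks against E18.5, 0 at 7 wks against 2 wks (1 at an unadjusted p under 0.05) and 8 at 7 wks against E18.5. With each library left out, between 3472 and 6146 genes and between 3 and 5 of the 10 were called from 2 to 7 wks, the fewest genes without 2 wks replicate 1. Directions turned with total count scaling for *Lmod3* to 2 wks (−0.0045), *Tmod1* from 2 to 7 wks (−0.21), *Lmod2* from E18.5 to 7 wks (−0.18) and the interval differences of *Tpm3* (−0.39), *Tpm4* (−0.24) and *Lmod3* (−0.21). They turned with the GC trend removed for *Tmod3* (0.046) and *Lmod2* (0.11) to 2 wks, *Tpm2* from 2 to 7 wks (0.00065) and the interval difference of *Tmod3* (0.41), and with the length trend removed for the interval differences of *Tpm3* (−0.18), *Tpm4* (−0.32) and *Tmod3* (0.0021). Leaving out 1 library turned *Lmod2* to 2 wks (−0.25 to 0.014), the interval difference of *Tpm3* (−0.082 to 0.41) and *Tmod3* from 2 to 7 wks (−0.18 to 0.056). The cause was not tested.

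Replicate numbers did not pair the libraries: deviations of same-numbered libraries correlated between −0.0991 and 0.235 over 12 pairs. With the replicate number as a block 12470, 5148 and 13611 genes and 8, 4 and 10 of the 10 genes were called, the lost one being *Neb* from 2 to 7 wks (0.77). A paired exact test of the ratios cannot reach the threshold with 4 pairs.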

Other observations

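Among the 4 libraries of 2 wks, several thin filament genes differed between replicates 1 and 2 on one side and replicates 3 and 4 on the other, and this was noticed after the values were seen. *Neb* was at 3206 and 3656 CPM in the former and at 5317 and 5236 CPM in the latter, and *Lmod3* at 135 and 162 CPM against 241 and 263 CPM. *Nrap* was at 913 and 887 CPM against 2053 and 2618 CPM, and *Xirp2*, an actin-binding protein, at 587 and 616 CPM against 1418 and 1653 CPM. The slow troponin T gene *Tnnt1* ran the other way, at 86.9 and 71.0 CPM against 16.6 and 21.98 CPM. *Tpm1* was at 14904 and 14183 CPM against 17778 and 18477 CPM, *Tpm3* at 124 and 104 CPM against 91.1 and 70.3 CPM, and *Tmod4* at 581 and 610 CPM against 484 and 458 CPM, whereas *Tpm2*, *Tpm4*, *Tmod1*, *Tmod3* and *Lmod2* showed no such order. The muscle marker sum was lower in replicates 1 and 2, at 101726 and 97267 CPM against 118003 and 114041 CPM. Summed markers of some other cells were higher there, opposite to *Neb* and *Lmod3*. They were at 477 and 757 CPM against 146 and 148 CPM for red blood cells, and at 1081 and 836 CPM against 548 and 637 CPM for smooth muscle. For nerve they were at 493 and 177 CPM against 157 and 95.9 CPM, and for fibroblasts at 6230 and 6383 CPM against 6168 and 4632 CPM. Among the smooth muscle markers only *Acta2* had this split, at 681 and 508 CPM against 177 and 190 CPM. The endothelium sum was not split, at 787 and 726 CPM against 886 and 743 CPM. The part of these cells in the split was not tested. The labels give no batch, litter or sex for these mice, and no comparison was made between them.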
